A study of Mus musculus with 4 samples.

Results

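The elastic fibre and latent TGF-β binding genes were followed in the lungs of mice carrying triple-negative breast cancer (TNBC) metastases, with and without cmLumiOpto/PARPi treatment. The set holds 10 genes taken by symbol from the deposited count table: elastin (Eln), the fibrillins Fbn1 and Fbn2, fibulin-5 (Fbln5), the lysyl oxidases Lox and Loxl2, and the latent TGF-β binding proteins (LTBPs) Ltbp1, Ltbp2, Ltbp3 and Ltbp4. Each symbol matched 1 of the 56748 rows of the table, and all 10 were among the 15167 genes with enough counts to be tested. Fbn2 passed that filter only through its saline libraries.

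The mice were female BALB/cJ animals injected through the tail vein at 7 weeks of age with 4T1-FLuc, a mouse TNBC cell line that carries firefly luciferase. The 2 control libraries came from mice given saline, a control that the sample labels call PBS. The 2 treated libraries came from mice given cmLumiOpto with the PARP inhibitor olaparib (PARPi, 50 mg/kg). cmLumiOpto is a light-emitting nanoluciferase paired with a light-gated channel of the inner mitochondrial membrane, carried by an adeno-associated virus inside exosomes that bear an antibody to CD276, and its luciferase substrate ViviRen was given at 2 mg/kg. Neither cmLumiOpto alone nor PARPi alone was among these libraries, so the agents cannot be told apart. All mice received 4T1 cells, and no lung without tumour cells was compared. Metastasis was imaged at week 3, and the day on which these lungs were taken is not given in the sources used here. The labels speak of tumour cells from the lung and the methods of lung tissue with metastases. Alveolar markers such as surfactant genes were detected in every library, so RNA of lung tissue was present. Keratins and other epithelial markers of 4T1 cells were detected too, but lung epithelium also makes most of them, so they do not set tumour cells apart.

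Elastic fibres let the lung stretch and recoil. They form when tropoelastin, the product of Eln, is laid onto microfibrils built from fibrillins, guided by fibulins, and is cross-linked by lysyl oxidases. Microfibrils also hold LTBPs, which bind TGF-β in its latent form and keep it in the matrix until integrins or proteases release it. Fibroblasts, smooth muscle and mesothelium are known sources of these proteins.

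The libraries held 16086720 and 15263375 counts after saline and 16755228 and 16509603 counts after cmLumiOpto/PARPi. Levels are given as CPM, a gene's counts scaled to library size with TMM factors, or as RPKM, the same per kilobase of gene length, when genes are compared with each other. A gene at 3 counts, the smallest level taken as detected, stands at 0.173 to 0.204 CPM, a floor that covers counting error only. The labels number the samples without saying which animals they came from, so p-values measure the spread between these libraries. With 2 libraries against 2, the smallest two-sided p of an exact permutation test is 0.333. Mitochondrial transcripts took 1.13% and 1.17% of counts after saline and 2.20% and 1.34% after treatment.

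Most of the elastic fibre and LTBP genes had lower levels after cmLumiOpto/PARPi, and none of them passed the test after adjustment. In 9 of the 10 genes both treated libraries lay below both saline libraries, and in Fbln5 both lay above. This placing below is common, since 27.8% of all genes tested had it, and 27.4% had both treated libraries above. In the longest of 5 groups by gene length, which holds 6 of the members, 53.5% of genes were placed below. The members were chosen with earlier results of these data known, so no share here is a test of the set. In edgeR's quasi-likelihood test, with p adjusted over all genes by the Benjamini-Hochberg method, 0% of genes and no member had an adjusted p under 0.05, and 0.138 was the smallest adjusted p of any gene. Other tools made calls on the same libraries: DESeq2 called 7 members, all lower, against 4.36% of genes called lower and 6.47% called in either direction. The exact test of edgeR called 6, all lower, against 3.25% lower and 5.37% in either direction. The quasi-likelihood fit without a filter on low counts called 9 members, against 7.86% of genes. Of these, 8 were lower and 1 higher, against 4.19% and 3.67% of genes. At an unadjusted p under 0.05, 8 members were lower, against 12% of all genes, and 1 was higher, against 9.21%. The median log2 fold change was −0.90 over the 10 members and 0.02 over all genes. Fbn2 is among the 9 placed below and the 8, and in the median. It passed the count filter only through its saline libraries, where it is high, so its placing is no independent result. Over all genes, 1824 were lower and 1397 higher at that unadjusted p, a split that turned to 1186 lower and 2089 higher (7.82% and 13.8%) with upper-quartile scaling. In that scaling 9 members were lower without overlap and 1 higher, against 20.9% and 35.1% of all genes, and 7 members were lower at an unadjusted p under 0.05. In a bulk sample, fewer cells of a type and less RNA per cell cannot be told apart.

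**Figure D1:**
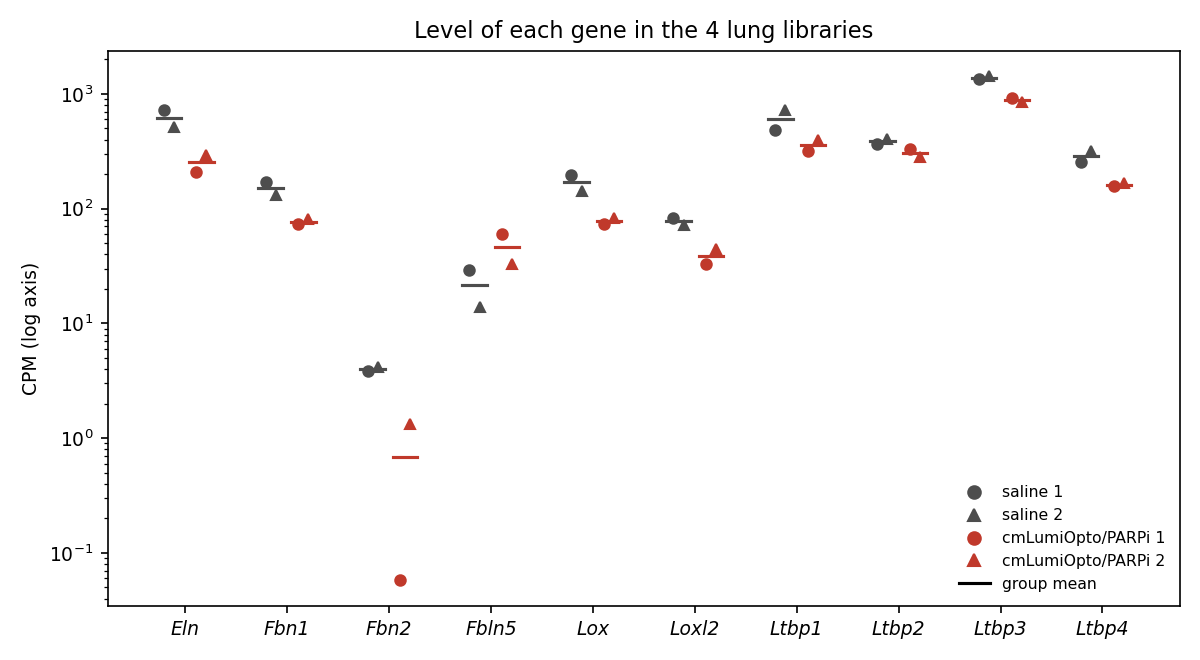
Level of each elastic fibre and LTBP gene (CPM, log axis) in the 2 saline and 2 cmLumiOpto/PARPi libraries, with points for single libraries and short lines for group means. In 9 genes both treated points lie under both saline points, and in Fbln5 they lie above.

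Elastin, the core of the fibre, had the highest RPKM in every library among the members that are not LTBPs. Eln (chromosome 5, 134731447 to 134776177) stood at 729 and 511 CPM in the saline libraries and at 210 and 296 CPM in the treated ones. Both treated libraries were low, and saline 1 was the highest of the 4. The level was 2.45-fold lower after treatment, a log2 fold change of −1.29 ± 0.25 (SE, n = 2 per group, 95% confidence interval −1.92 to −0.67, adjusted p = 0.138). Leaving out 1 library at a time gave values from −1.59 to −1.03.

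The fibrillins, the scaffold of the microfibril, were lower as well. Fbn1 (chromosome 2, 125142514 to 125349913), the main fibrillin of adult tissue, stood at 172 and 131 CPM after saline and at 72.9 and 81.5 CPM after cmLumiOpto/PARPi. The treated pair was close together and below the saline pair, with a log2 fold change of −0.97 ± 0.18 (SE, adjusted p = 0.138). Fbn2 (chromosome 18), a fibrillin made mostly during development, had few counts, above all in the treated libraries. It had 61 counts in each saline library, then 1 and 22 counts in the treated libraries. As levels these were 3.83 and 4.16 CPM against 0.0576 and 1.32 CPM, and only treated library 1 fell under the 3-count floor. Summed over libraries, 122 counts stood against 23, a treated-to-saline ratio of 0.170 with a counting interval of 0.104 to 0.267 (exact, 95%), which leaves out the spread between libraries. The log2 fold change of Fbn2 was −2.53 ± 1.01 (SE, adjusted p = 0.232). It moved to −1.59 without treated library 1 and to −5.95 without treated library 2, so its size rested on single treated libraries.

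Fibulin-5, which tethers elastin to microfibrils and to cell-surface integrins, went against the others. Fbln5 (chromosome 12, 101712824 to 101785314) stood at 29.2 and 14.04 CPM after saline and at 60.6 and 33.0 CPM after treatment. The groups did not overlap, but saline 1 and treated library 2 differed by less than the libraries of either group did. The log2 fold change was 1.11 ± 0.43 (SE, 95% confidence interval 0.06 to 2.17, adjusted p = 0.222). It dropped to 0.61 without treated library 1 and to 0.66 without saline 2, and was 1.72 without saline 1. Per length, Fbln5 was present at 0.0470 and 0.0322 of the Eln RPKM after saline and at 0.338 and 0.131 after treatment. Its ratio to Fbn1 was 0.298 and 0.188 after saline and 1.46 and 0.712 after treatment.

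The lysyl oxidases, copper enzymes that oxidise lysine side chains so that elastin and collagen can be cross-linked, were lower by similar amounts. Lox (chromosome 18), which acts on both elastin and collagen, stood at 195 and 144 CPM after saline and at 74.0 and 82.6 CPM after cmLumiOpto/PARPi. Its log2 fold change of −1.12 ± 0.19 (SE, 95% confidence interval −1.58 to −0.66, unadjusted p = 0.00109, adjusted p = 0.138) had the smallest p of the 10 genes. Loxl2 (chromosome 14, 69846517 to 69933283), known above all for its action on collagen, stood at 82.8 and 72.8 CPM after saline and at 32.9 and 44.2 CPM after treatment. Its log2 fold change was −1.01 ± 0.19 (SE, adjusted p = 0.138). In neither gene did the groups overlap, a placing below that 27.8% of all genes tested had. The RPKM of Lox was 2.67 and 2.24 times that of Loxl2 after saline and 2.55 and 2.11 times after treatment, so the proportion of the pair overlapped between groups.

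All 4 LTBPs were lower in both treated libraries, by unequal amounts. Ltbp1 (chromosome 17, 75312563 to 75699507), which binds latent TGF-β and fibrillin, stood at 488 and 727 CPM after saline and at 316 and 397 CPM after treatment. Saline 2 was the highest library, and the log2 fold change of −0.77 ± 0.24 (SE, adjusted p = 0.176) dropped in size to −0.47 without it. Ltbp3 (chromosome 19, 5790932 to 5808560), another carrier of latent TGF-β, stood at 1342 and 1434 CPM after saline and at 922 and 852 CPM after treatment. The spread within each pair was small beside the gap, and the log2 fold change was −0.65 ± 0.16 (SE, adjusted p = 0.142). Ltbp4 (chromosome 7, 27004561 to 27037117), which binds latent TGF-β and also fibulin-5, stood at 256 and 318 CPM after saline and at 156 and 167 CPM after treatment, with a log2 fold change of −0.83 ± 0.16 (SE, adjusted p = 0.138). It was lower while its partner Fbln5 had the opposite sign.

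Ltbp2 (chromosome 12, 84829986 to 84923306) differed least. Unlike the other LTBPs, its product does not bind latent TGF-β and is bound to fibrillin microfibrils. It stood at 367 and 407 CPM after saline and at 331 and 279 CPM after treatment, with a log2 fold change of −0.34 ± 0.16 (SE, 95% confidence interval −0.73 to 0.05, adjusted p = 0.277). Set against Ltbp3 by RPKM, Ltbp2 stood at 0.303 and 0.315 after saline and at 0.398 and 0.363 after treatment, without overlap. The ratios of Ltbp1 and of Ltbp4 to Ltbp3 overlapped between the groups. The difference between the LTBPs was not tested.

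**Figure D2:**
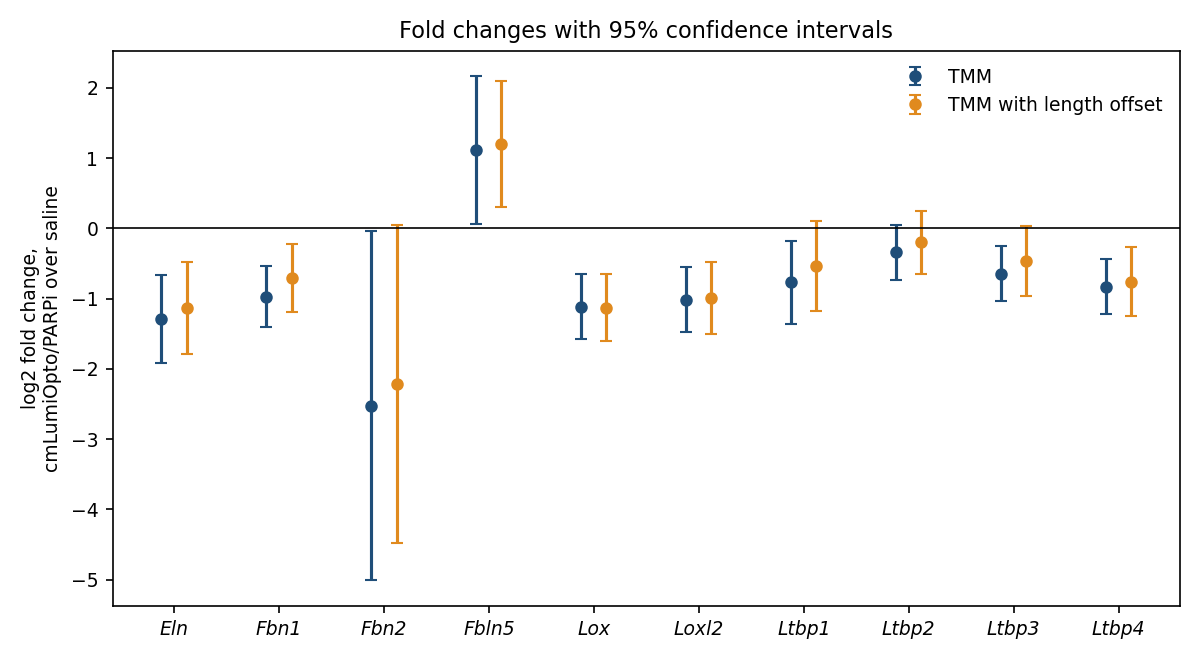
Log2 fold change of each gene, cmLumiOpto/PARPi over saline, from edgeR's quasi-likelihood fit with TMM factors (blue) and with a further offset for gene length (orange), bars being 95% confidence intervals. Under TMM only the interval of Ltbp2 (−0.73 to 0.05) reaches 0, and under the length offset those of Fbn2, Ltbp1, Ltbp2 and Ltbp3 do.

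Coordinates are those of the deposited table, whose build is mm39 by the submitters' processing notes, while the methods name GRCm38. None of the 10 genes has the same position in the GRCm38 annotation. The Ltbp2 row overlaps the antisense long noncoding RNA D030025P21Rik, which had 100 to 127 counts per library. Whether counting used the strand is not stated, so reads of a member and of a gene on its opposite strand may not be separated.

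Per length, the makeup of the set was led by the LTBPs. The 10 genes summed to 443 and 445 RPKM after saline and to 258 and 264 RPKM after cmLumiOpto/PARPi. The LTBPs gave 278 and 325 RPKM of this after saline and 196 and 191 RPKM after treatment. Ltbp3 ranked first in all 4 libraries, with 33.4% and 35.5% of the summed RPKM after saline and 39.4% and 35.5% after treatment. Behind it, Eln, Ltbp1 and Ltbp2 changed places between libraries, Eln standing at 90.0 and 63.1 RPKM after saline and 25.9 and 36.5 RPKM after treatment. Ltbp4, at 24.2 to 49.2 RPKM, and Lox, at 15.5 to 40.9 RPKM, followed. Loxl2, Fbn1 and Fbln5 stood at 2.03 to 15.3 RPKM, and Fbn2 was last in every library at 0.315 RPKM or less.

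**Figure D3:**
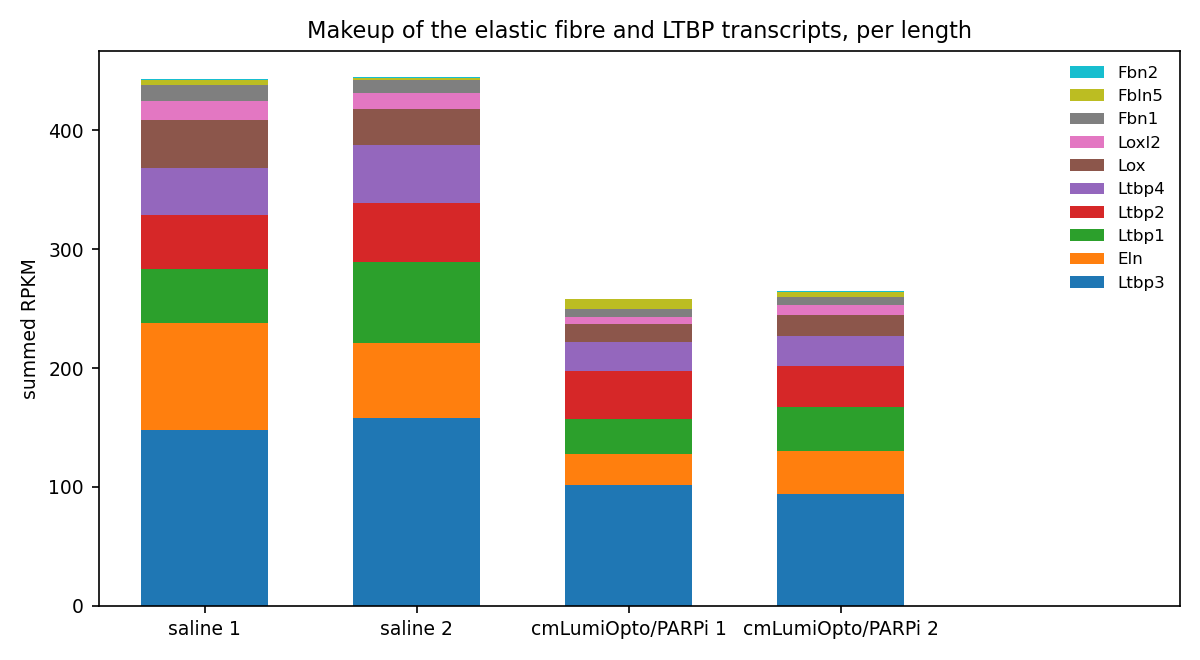
Summed RPKM of the 10 genes in each library, stacked by gene in the order of the legend from top to bottom. The saline bars reach 443 and 445 RPKM and the treated bars 258 and 264 RPKM, and Ltbp3 is the largest block in each.

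Starts of transcription were available from RefSeq (GRCm38.p6) for 6 of the genes: Fbn1, Fbln5, Ltbp1, Ltbp2, Ltbp3 and Ltbp4, with 10 start sites. The 250 bases before a start are shown for Fbn1 as a member lower after treatment, Ltbp3 as the most abundant, Ltbp2 as the one that differed least and Fbln5 as the one with the opposite sign. Each is written 5′ to 3′ on the strand of the gene. Capitals mark the letters GGGCGG, bound by SP1, or CAGAC, bound by SMADs, the transcription factors that act downstream of TGF-β receptors, on either strand. The windows are chr2:125506439-125506688 (minus strand) for Fbn1, chr19:5740650-5740899 (plus) for Ltbp3, chr12:84876492-84876741 (minus) for Ltbp2 and chr12:101819120-101819369 (minus) for Fbln5.
Fbn1: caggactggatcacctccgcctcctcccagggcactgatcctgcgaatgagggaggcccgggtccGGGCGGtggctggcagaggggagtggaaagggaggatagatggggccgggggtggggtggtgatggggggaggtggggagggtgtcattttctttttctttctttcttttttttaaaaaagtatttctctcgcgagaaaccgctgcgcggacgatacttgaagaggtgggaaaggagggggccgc
Ltbp3: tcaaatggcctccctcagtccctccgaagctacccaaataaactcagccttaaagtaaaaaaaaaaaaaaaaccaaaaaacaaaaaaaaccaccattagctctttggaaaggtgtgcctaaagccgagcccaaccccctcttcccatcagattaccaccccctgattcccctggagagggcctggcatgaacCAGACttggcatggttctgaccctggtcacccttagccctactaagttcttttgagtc
Ltbp2: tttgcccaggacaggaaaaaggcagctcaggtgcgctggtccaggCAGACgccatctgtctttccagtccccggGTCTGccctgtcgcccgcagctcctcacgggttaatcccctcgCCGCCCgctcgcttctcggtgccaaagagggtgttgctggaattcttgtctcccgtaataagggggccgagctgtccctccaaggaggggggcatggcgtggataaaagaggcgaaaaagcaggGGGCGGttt
Fbln5: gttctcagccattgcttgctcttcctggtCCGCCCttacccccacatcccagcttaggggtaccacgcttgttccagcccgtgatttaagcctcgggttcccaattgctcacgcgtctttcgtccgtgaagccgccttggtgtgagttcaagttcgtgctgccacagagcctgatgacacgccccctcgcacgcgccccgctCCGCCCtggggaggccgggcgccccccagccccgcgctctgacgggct

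The Fbn1 window held 1 SP1 match and no SMAD match, and the Ltbp3 window 1 SMAD match and no SP1 match. Ltbp2 held 2 of each, and this Fbln5 window 2 SP1 matches. Over the 10 start sites, 6 windows had GGGCGG and 5 had CAGAC, where 32.7% and 42.2% of 32851 mouse promoter windows of the same length have them. The second start of Fbln5 and both starts of Ltbp1 had CAGAC, and the 3 starts of Ltbp4 had GGGCGG. The AP-1 letters TGANTCA are in 6.75% of all windows. The TEAD letters GGAATG are in 12.6% of them. The TATA box, searched as TATAAA, is in 12.4%, and the CArG box in 1.47%. Neither these nor the AP-1 and TEAD letters were in any of the 10 windows. The windows of starts 2 and 3 of Ltbp4 overlap each other, and that of start 1 lies apart. The GC content of the members' windows ran from 47.2% to 79.2%, against a median of 52.4% over all. The matches describe letters only. Fbln5, with the opposite sign, and Ltbp2, with the smallest difference, both had matches to GGGCGG, as did Fbn1 and Ltbp4.

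Gene length went along with the fold changes in these libraries. Across the 15167 genes, longer genes had lower log2 fold changes (Spearman's rho = −0.373, a description across genes, which are not independent replicates). The genes were put into 5 equal groups by length. The longest group holds Eln, Fbn1, Fbn2, Ltbp1, Ltbp2 and Ltbp3, and in it 53.5% of genes had both treated libraries below both saline libraries and 10.8% above, with a median of −0.27. In the next group, with Fbln5, Loxl2 and Ltbp4, 36.4% were placed below and 17.8% above, with a median of −0.09. In the middle group, with Lox, 25% were placed below and 25.5% above, with a median of 0.02. Each of the 9 lower members lay below the median of its own length group, Ltbp2 by the least. With the length trend taken out by an offset, 9 members were lower without overlap and 1 higher, against 28.5% and 21% of all genes. The log2 fold changes were then −1.14 for Eln, −0.71 for Fbn1, −1.13 for Lox, −0.99 for Loxl2, −0.76 for Ltbp4 and 1.20 for Fbln5. Ltbp1 (−0.54), Ltbp3 (−0.47) and Fbn2 (−2.22) no longer had an unadjusted p under 0.05, and Ltbp2 (−0.20) had not had one without the offset. At that p, 5 members were lower and 1 higher, against 8.37% and 6.05% of all genes.

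**Figure D4:**
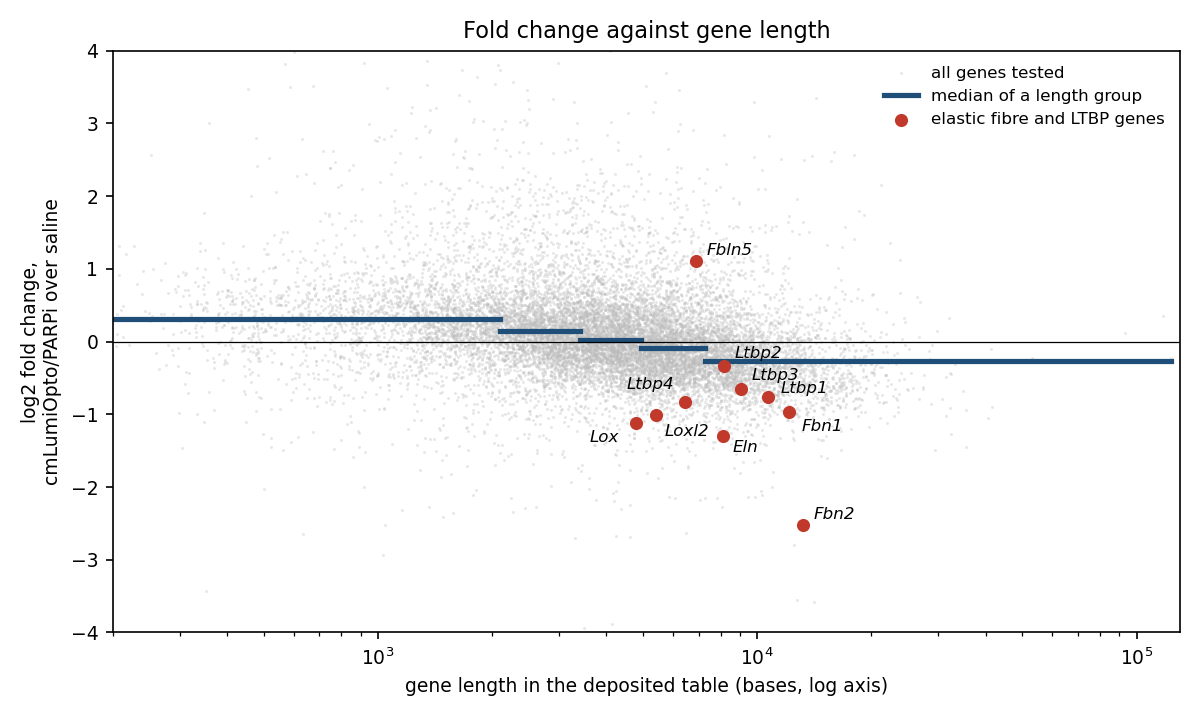
Log2 fold change, cmLumiOpto/PARPi over saline, against gene length (bases, log axis) for all genes tested (grey), with the median of each length group (blue bars) and the 10 members in red. Genes beyond 4 on either side are not drawn. The medians go from 0.31 in the shortest group to −0.27 in the longest, and 9 members lie below the bar of their group.

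Genes that work with the elastic fibre and with latent TGF-β were mixed in direction. Of 61 such genes in 6 lists, 59 were tested, and none had an adjusted p under 0.05. In 27 both treated libraries lay below both saline libraries, in 8 above, and in 24 the groups overlapped. Over all genes tested, 27.8% were placed below and 27.4% above. At an unadjusted p under 0.05, 22 were lower and 6 higher, against 12% and 9.21% of all genes. The shares placed below in the 3 longest length groups were 25%, 36.4% and 53.5%, so each list is given with its lengths. Their median log2 fold change was −0.25.

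Among the fibulins, EMILINs and microfibril-associated proteins, 7 of 10 tested genes overlapped between the groups, 2 were below and 1 above, and the median was −0.12. None of the 10 is in the longest group. Fbln2, another fibulin, stood at 634 and 753 CPM after saline and 235 and 431 CPM after treatment (log2 fold change −1.06 ± 0.30 SE). Emilin2, a glycoprotein of elastic fibres, had a log2 fold change of −0.63 ± 0.17 (SE). Efemp1, which encodes fibulin-3, was above in both treated libraries, at 3.01 and 2.18 CPM against 28.8 and 4.09 CPM, so its size (2.66 ± 0.89 SE) came mostly from treated library 1. Mfap4, which binds elastin and fibrillin, was also highest in that library, at 146 CPM, and its groups overlapped.

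Of the 6 other cross-linking enzymes and their activators, 4 were below, 0 above and 2 overlapped, with a median of −0.54. The shares over all genes were 27.8% below and 27.4% above, and 3 of the 6 are in the longest group, where 53.5% were below. Loxl1, the lysyl oxidase most tied to elastin, stood at 90.1 and 73.9 CPM after saline and 47.7 and 39.5 CPM after treatment (log2 fold change −0.91 ± 0.17 SE, adjusted p = 0.138). Bmp1, the protease that activates pro-lysyl oxidase, had a log2 fold change of −0.63 ± 0.16 (SE), and Loxl3 one of −0.49 ± 0.13 (SE). The ADAMTS and ADAMTSL proteins that bind microfibrils were split, 4 below, 2 above and 1 overlapping, with a median of −0.52. Of these 7, 6 are in the longest group, where 53.5% of all genes were below and 10.8% above, so the count below is near that share. Adamtsl4 (−0.75), Adamtsl3 (−0.62) and Thsd4 (−0.52), which encodes ADAMTSL6, had negative log2 fold changes. Adamts10 (0.93) and Adamtsl2 (1.40) had positive ones.

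Of 15 genes for TGF-β latency and activation, 9 were below, 2 above and 4 overlapped, with a median of −0.25, against 27.8% below and 27.4% above over all genes. The 2 longest groups, with 36.4% and 53.5% below, hold 6 and 4 of them. Tgfb2, a ligand, stood at 23.3 and 25.5 CPM after saline and 13.0 and 13.2 CPM after treatment (log2 fold change −0.89 ± 0.19 SE, adjusted p = 0.138). Furin, which cleaves the TGF-β precursor, had a log2 fold change of −0.64 ± 0.15 (SE). Itgav, the αv subunit of the integrins that release TGF-β from its latent complex, had one of −0.62 ± 0.15 (SE). Nrros, which holds latent TGF-β on myeloid cells, stood at 34.1 and 25.2 CPM after saline and 53.0 and 42.2 CPM after treatment (0.68 ± 0.21 SE). Itgb6 (1.19 ± 0.54 SE), the β6 partner of αv in epithelium, was above in both treated libraries, and Itga8 (1.26 ± 0.57 SE) overlapped.

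Among 9 tested elastin-degrading proteases, 6 overlapped, 1 was below and 2 were above, with a median of 0.13. None of the 9 is in the longest group. Mmp2 stood at 180 and 118 CPM after saline and at 35.3 and 54.3 CPM after treatment (log2 fold change −1.74 ± 0.29 SE). Mmp12, the macrophage elastase, stood at 38.9 and 24.1 CPM after saline and at 67.3 and 164 CPM after treatment (1.88 ± 0.46 SE). Ctsk (2.11 ± 0.52 SE), the cysteine protease cathepsin K, was likewise highest in treated library 2. Cela1 (−0.49) and the neutrophil elastase gene Elane (0.64) overlapped.

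Of 12 genes known to respond to TGF-β, 7 were below, 1 above and 4 overlapped, with a median of −0.46, against 27.8% below and 27.4% above over all genes. The 2 longest groups hold 2 and 3 of them. Col1a1, a chain of collagen I, stood at 2064 and 1377 CPM after saline and at 455 and 572 CPM after treatment (log2 fold change −1.74 ± 0.26 SE, adjusted p = 0.138). Pmepa1 (−0.77 ± 0.16 SE) and Smad7 (−0.54 ± 0.14 SE), feedback inhibitors of the pathway, were below. Bambi (1.09 ± 0.33 SE), a decoy receptor, was above, and Postn (0.24) and Tgfbi (0.10) overlapped.

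**Figure D5:**
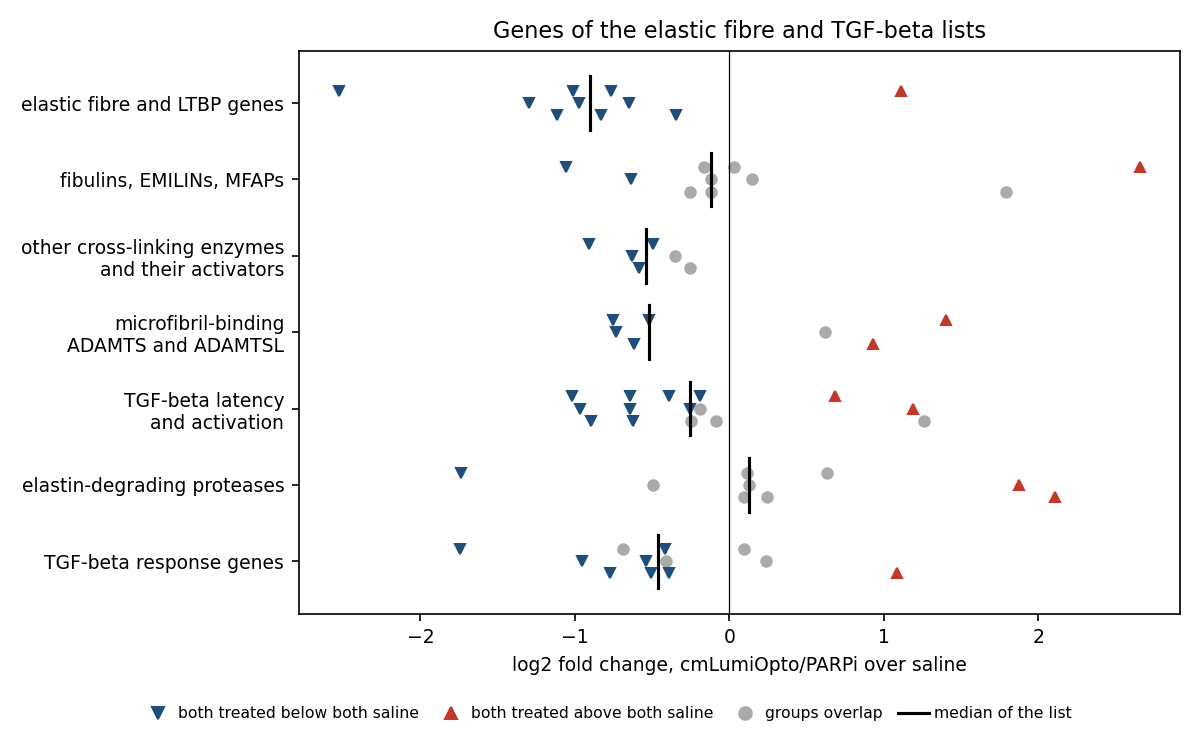
Log2 fold change, cmLumiOpto/PARPi over saline, of every tested gene of the elastic fibre set and of 6 related lists, with 1 symbol per gene and a vertical bar at the median of each list. The medians run from −0.90 in the elastic fibre and LTBP genes to 0.13 in the elastin-degrading proteases, and the symbols show whether the groups overlap.

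Marker genes of several cell types moved with the groups. The summed CPM of 9 fibroblast markers was 2202 and 1900 after saline and 1099 and 1151 after treatment, with 7 markers below, 1 above and 1 overlapping. Much of this difference came from Col1a2, the most abundant of them. Without it the sums were 951 and 1125 CPM after saline and 682 and 713 CPM after treatment. Over all genes tested, 27.8% were placed below and 27.4% above. Most of the fibroblast markers are in the 2 longest length groups, where 36.4% and 53.5% of genes were below. All alveolar type 2 and airway markers are in the 2 shortest, where 47.9% and 34.9% were above. Markers of alveolar type 2 cells summed to 1441 and 296 CPM after saline and to 7675 and 2686 CPM after treatment, and those of alveolar type 1 cells to 246 and 106 CPM and to 716 and 364 CPM. Airway markers summed to 1154 and 81.4 CPM after saline and to 5692 and 2987 CPM after treatment, and leukocyte markers to 2304 and 1439 CPM and to 4099 and 3166 CPM. Of the 5 leukocyte markers 2 were above (Lyz2 and Cd68) and 3 overlapped, and without Lyz2, which alveolar type 2 cells also make, the sums overlapped, at 612 and 298 CPM against 480 and 725 CPM. The epithelial markers taken for 4T1 cells, most of which lung epithelium makes too, overlapped, at 3011 and 3390 CPM against 2690 and 3849 CPM. The order of the libraries in Fbln5, from saline 2 through saline 1 and treated library 2 to treated library 1, was that of the alveolar and airway sums. The leukocyte sums had it only with Lyz2 included. This sharing of an order was not tested. No marker of these 6 lists was under 3 counts in any library. The part of these cell types in the results on elastic fibre genes was not tested.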

How the data were processed

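Bulk RNA of lungs with 4T1 metastases was sequenced as poly-A libraries. Per the methods and labels, reads were mapped with HISAT2 to the mouse genome, and the authors deposited whole-number counts per gene, not normalized. The counter and its strand setting are not given in the sources used here. The methods and labels name different extraction kits.

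From the counts, edgeR 4.0.16 in R 4.3.3 was used: TMM factors, filterByExpr (minimum count 10), quasi-likelihood tests by glmQLFit with glmQLFTest, and Benjamini-Hochberg adjustment over all genes tested (threshold 0.05). The length offset came from a loess fit (span 0.5) of each library's log2 CPM, centred by gene, on log2 length. CPM used TMM factors, and RPKM divided it by the table's gene length. Libraries of a group differed by more than counting error: chi-square per degree of freedom was 17.5 for the saline pair and 29.9 for the treated pair. Each was counted as 1 replicate, though this does not show that they came from different animals. In each related list the text names up to 3 genes per direction with the smallest unadjusted p. The member genes, the lists and the tests were chosen with earlier results of these data known. The methods were tested on simulated data. Alternatives were DESeq2 1.42.0, edgeR's exact test and glmQLFit without its legacy option, other factors and filters, a replicate block, length offsets and leaving out each library.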

Additional observations from a re-analysis of the deposited data

How the results depend on the processing

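No setting turned the direction of any of the 10 genes, and 9 were lower without overlap in each. Fbn2, which passed the main count filter only through its saline libraries, is among the 9. Several settings reuse the same levels, and groups that do not overlap stay so when 1 library is left out. This count therefore had little room to change. Of all genes tested, 27.8% were placed lower in the main fit, 20.9% with upper-quartile factors and 36.6% to 39.4% without 1 library. With 2 libraries per group, the number of calls depended on how the spread was estimated. DESeq2 called 981 genes, 7 of the 10 members and 16 genes of the related lists. The exact test called 815, 6 and 11, and the fit without a filter on low counts called 2000, 9 and 25. Labels share replicate numbers, but nothing says that a number marks a shared animal or batch, and with only 2 pairs the numbers are not shown to pair the libraries. Same-numbered libraries deviated together across genes (Pearson's r = 0.385, Spearman's rho = 0.312). A replicate block gave 1822 genes (12% of those tested), 8 members (Eln, Fbn1, Fbln5, Lox, Loxl2, Ltbp1, Ltbp3 and Ltbp4) and 24 list genes. A replicate block with length offset gave 1234 (8.14%), 7 and 19. Fits without 1 library gave 0 to 31 genes and 0 members. The other factors, the stricter filter, the legacy option and the length offset alone gave 0 genes. The members' median log2 fold change of −0.90 became −0.80 with upper-quartile factors, which moved the median of all genes from 0.02 to 0.13, −0.74 with the length offset and −0.73 with that and the block, and ran from −1.02 to −0.80 without 1 library. Fbn2, at 1 to 61 counts, is limited by depth.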

Other observations

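The summed markers of smooth muscle, mesothelium, endothelium, cardiac muscle and cartilage overlapped between the groups. The 6 smooth muscle markers summed to 178 and 223 CPM after saline and to 194 and 151 CPM after cmLumiOpto/PARPi, with 2 markers below, 1 above and 3 overlapping. The shares over all genes tested were 27.8% below and 27.4% above. Those of mesothelium summed to 136 and 231 CPM after saline and to 224 and 215 CPM after treatment. Saline 1 was the low library in this sum, most of which was Msln. Without Msln the mesothelium sums were 31.5 and 26.9 CPM after saline and 72.7 and 14.1 CPM after treatment, and treated library 2 was the lowest. Endothelial markers summed to 455 and 375 CPM after saline and to 622 and 370 CPM after treatment. Cardiac muscle markers summed to 98.8 and 90.6 CPM and to 64.9 and 149 CPM, of which Tnnt2 made up 96.5 and 89.9 CPM and 59.6 and 144 CPM. The other cardiac genes were low, with Actc1 at 0.753 and 0.341 CPM after saline and 3.74 and 2.11 CPM after treatment (log2 fold change 2.39 ± 0.62 SE) and Myh6 also above (1.22 ± 0.72 SE), and with Nppa, an atrial hormone, under 3 counts. Cartilage markers were near 0, at 0.439 to 1.32 CPM in sum, and Col2a1, Acan and Matn3 were under 3 counts in at least 1 library. Among the fibroblast markers, Tcf21, a transcription factor of lung lipofibroblasts, was the only one above in both treated libraries.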
